A study of Mus musculus with 46 samples.

Results

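Interleukin 6 and the genes that receive, transmit and restrain its signal were followed in mouse lung during exposure to pure oxygen, which injures the lung. The set comprised 8 genes: the ligand gene Il6, the receptor genes Il6ra, Il6st and Osmr, the transcription factor gene Stat3, and the feedback inhibitor genes Socs3, Socs2 and Cish. They were chosen by symbol, and every probe set that the array annotation assigned to 1 of them was used. This gave 17 probe sets out of 36701 on the 3 array types, for 8 of the 15965 genes with a probe set of 1 symbol. All 8 genes were on the arrays, and no probe set of theirs carried a second symbol.

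Interleukin 6 binds its receptor Il6ra, and the complex engages gp130, the shared signalling chain encoded by Il6st. Oncostatin M uses the same chain together with Osmr. Janus kinases bound to these receptors then phosphorylate STAT3, which enters the nucleus and induces, among others, Socs3. The SOCS3 protein binds gp130 and the kinases and closes a negative feedback loop, while CIS (Cish) and SOCS2 are best known as feedback inhibitors of growth hormone and cytokine signals that run through STAT5. In the lung the interleukin 6 pathway is known for its part in the acute phase response and in epithelial survival during injury.

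Lung RNA came from wild type and Nrf2 mutant mice. Nrf2, encoded by Nfe2l2, is the transcription factor that drives antioxidant genes. Each genotype was sampled at time 0 and after 24, 48 and 72 h in 100% oxygen, which gave 8 groups. The labels give no strain, age, sex or kind of mutation. Array type A had 14 arrays, and types B and C had 16 each. Every group had replicates 1a and 1b, except that wild type at 24 h and the mutant at 0 h had a single array of type A (1b). Nothing in the labels tells whether a pair came from separate animals, and p-values therefore measure only the spread between these samples. Whole lung was measured, so fewer cells of a type and less RNA per cell cannot be told apart.

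The probe set of Nfe2l2 on array type A ranged between 302.5 and 448.4 intensity units in the mutant (7 arrays) and between 2428 and 4488 in wild type (7 arrays). Alveolar type 2 cell markers, which define lung tissue, were bright in every group (summed intensity of 4 genes on type A between 34290 and 71210). The mutant 0 h arrays stood apart. Their ratio of 3′ to 5′ Gapdh signal, a measure of RNA integrity, was 1.67 to 2.26 on 5 arrays, against 0.858 to 1.54 on the other 41. On the type A array of this group the summed intensity of 5 squamous epithelium markers was 23010, against 1313 to 2126 on all others. That of 5 skeletal muscle markers was 24850, against 608.9 to 2683. Every change of the mutant against its own 0 h, and every difference between genotypes in that change, rests on this group. The mutant changes of the members, and those of the pathway genes named below, are therefore also given against wild type 0 h, a comparison in which genotype and oxygen both differ.

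Promoter sequences show where the pathway's DNA motifs lie near the start of these genes. RefSeq windows on build GRCm38.p6, from 250 bases before to 50 bases after the start, were found for 7 of the 8 genes, all but Socs2. They were searched on both strands for the STAT motif TTCNNNGAA, the AP-1 motif TGANTCA, the kappaB motif of NF-kappaB, and TGACNNNGC, the core of the antioxidant response element that Nrf2 binds. Of all 32851 mouse windows of that length, 8.3% held the STAT motif, 7.81% the AP-1 motif, 4.51% the kappaB motif and 12.4% the TGACNNNGC core. The STAT motif occurred in Socs3 and Cish, and AP-1 in Il6 and Osmr. The kappaB motif occurred in Il6. The TGACNNNGC core was in none of the 7 windows, and those of Il6ra, Il6st and Stat3 held none of the 4 motifs. The start that the table uses for Socs3, Stat3 and Osmr lies inside the annotated span of the gene. Shown are the stretches around the STAT motifs of the feedback genes and the sequence upstream of the ligand gene. The Socs3 stretch is chr11:117969501-117969530, minus strand, with its STAT motif at -154 to -146 from the start. The Cish stretch is chr9:107296659-107296678, plus strand, with STAT motifs at 1 to 9 and 12 to 20. The Il6 stretch is chr5:30012864-30013113, plus strand, with AP-1 at -249 to -243 and kappaB at -44 to -35. Capitals mark the motifs. A match describes letters only.
Socs3: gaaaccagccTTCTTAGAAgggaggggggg
Cish: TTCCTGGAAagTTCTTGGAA
Il6: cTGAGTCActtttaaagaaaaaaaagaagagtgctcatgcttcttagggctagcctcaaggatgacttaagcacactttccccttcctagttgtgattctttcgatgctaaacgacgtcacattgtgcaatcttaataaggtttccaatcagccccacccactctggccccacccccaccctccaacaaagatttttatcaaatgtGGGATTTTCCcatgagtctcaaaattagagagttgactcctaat

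Values below are deposited intensities per array, in the order 1a then 1b. Changes are log2 differences ± SE, computed after a constant was added to each intensity (78.1, 126 and 106 units on array types A, B and C), so they understate the change of dim probe sets. They come from limma with p-values adjusted by Benjamini-Hochberg over all 26833 tested probe sets. An adjusted p below 0.05 is referred to as a call. Tested were probe sets above a filter value (195, 272 and 211 units on types A, B and C) on at least 2 arrays. All 17 probe sets passed. Il6 passed on 2 of 14 arrays, both of the mutant at 72 h, so its test was open only because of the group in which it was highest. Stat3 140432_r_at passed on 4 of 16 arrays, Socs3 92232_at on 12 of 14, Socs3 111736_at on 14 of 16 and the other 13 on all. Intensities of different probe sets are not comparable with each other.

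The first question was which of these genes oxygen changed in wild type lung. At 24 h none of the 17 probe sets was called. At 48 h both array A probe sets of Socs3 and 1 of Stat3 were higher. At 72 h 9 probe sets of 7 genes were higher and none was lower, Il6ra being the gene without a call. Among all tested probe sets 0.962% were called higher at 24 h, 3.25% at 48 h and 4.26% at 72 h. The median log2 difference of the 17 was 0.29, 0.50 and 0.62 at the 3 times, beside -0.06, -0.03 and -0.06 over all probe sets.

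In the mutant against its own 0 h, 11 probe sets were higher at 24 h, 8 at 48 h and 10 at 72 h, and 1 of Stat3 was lower at 24 and 48 h. The background was much larger as well. Of all tested probe sets, 12.2% were called higher and 12.1% lower at 24 h. At 48 h 9.61% were higher and 8.27% lower, and at 72 h 11.0% were higher. The median of the 17 was 0.86, 0.69 and 0.92, beside -0.03, -0.02 and -0.03 over all. Against wild type 0 h, 6, 6 and 8 member probe sets were called at the 3 times, all of them higher, where 5.11%, 3.56% and 6.23% of all probe sets were called higher. The counts include Il6 at 72 h against either 0 h group and at 48 h against wild type 0 h, and Il6 was open to a test only through the mutant 72 h arrays. The calls lost when a replicate was left out are named with each gene. On type A the single mutant 0 h array could not be left out of the comparisons with mutant 0 h.

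**Figure D1:**
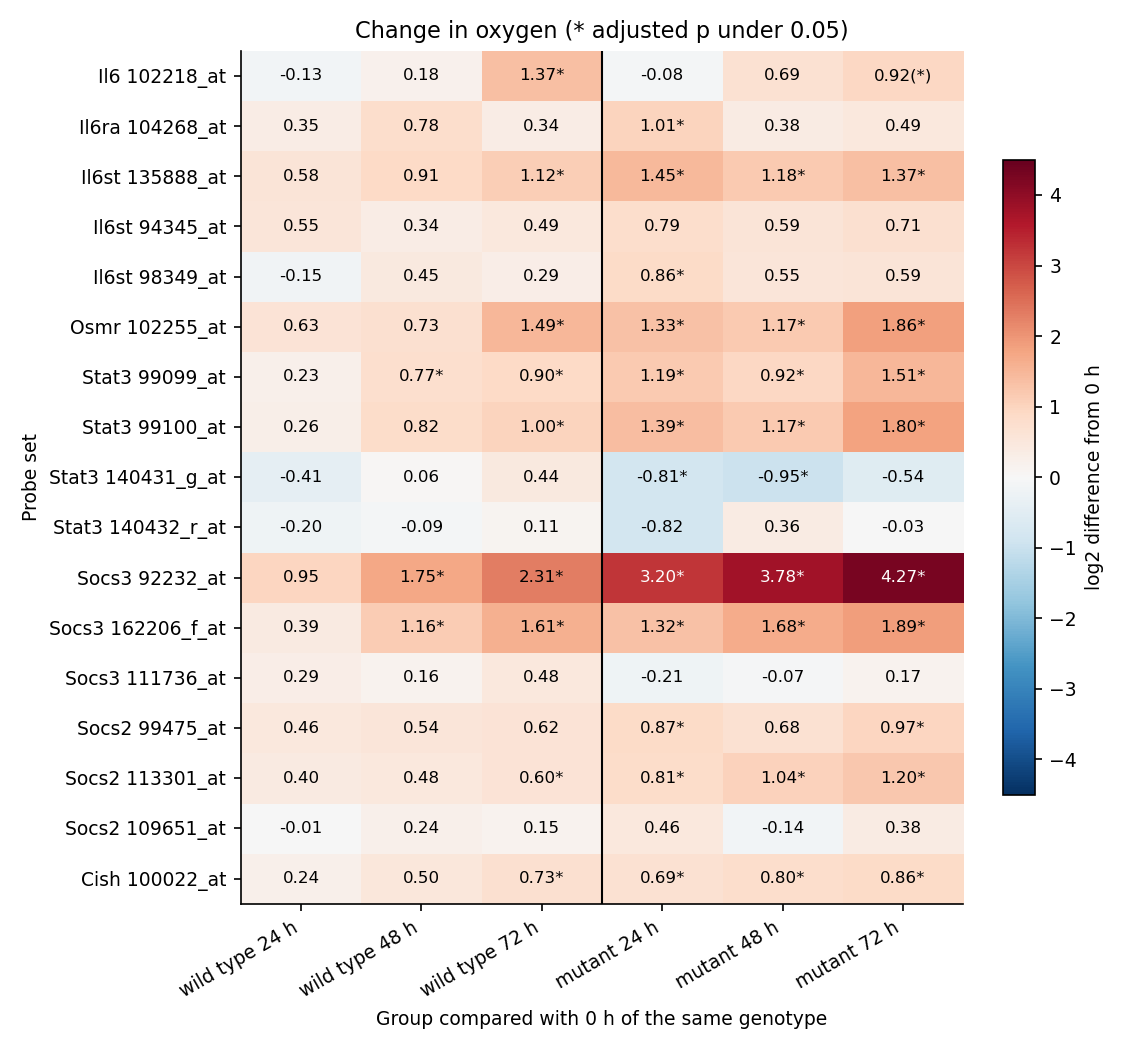
Log2 differences of the 17 probe sets (rows) in each oxygen group against 0 h of the same genotype (columns), with the colour scale at the right and an asterisk where the adjusted p was under 0.05, in brackets for Il6 in the mutant at 72 h, whose 2 arrays alone passed the filter. Socs3 92232_at has the deepest colour in every column, from 0.95 in wild type at 24 h to 4.27 in the mutant at 72 h, and Stat3 140431_g_at is the called probe set that is lower.

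Il6 (probe set 102218_at; gene ID 16193, chr5:30013114-30019975 on GRCm38.p6) encodes the ligand. Its signal was below the filter value on every wild type array. Wild type gave 18.6 and 18.9 at 0 h, 10.6 at 24 h, 56.3 and 12.0 at 48 h, and 171 and 172 at 72 h. The mutant gave 74.9 at 0 h, 96.2 and 41.7 at 24 h, 153 and 187 at 48 h, and 203 and 222 at 72 h. Both genotypes were thus highest at 72 h, without overlap with their earlier arrays, and at each time every mutant array lay above every wild type array.

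The rise of Il6 at 72 h was called in wild type (1.37 ± 0.23, adjusted p = 0.00532), while the mutant difference at 72 h was 0.92 ± 0.28 against its own 0 h (adjusted p = 0.0372). Against wild type 0 h the mutant difference was 0.58 at 24 h (adjusted p = 0.141), 1.35 ± 0.23 at 48 h (adjusted p = 0.00667) and 1.58 ± 0.23 at 72 h (adjusted p = 0.00144). The wild type difference was 1.36 to 1.37 when each replicate in turn was left out. In these fits the filter stayed as set on all arrays. Without either mutant 72 h array Il6 would not have passed it, and the stricter filter left Il6 out. The mutant difference from its own 0 h was no longer called without either replicate of wild type 0 h (0.0515), wild type 72 h (0.0502) or mutant 72 h (0.0855 and 0.107). No fold is given, since the reference arrays were below the filter value.

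Il6ra (104268_at; chr3:89869324-89913196) encodes the ligand-binding receptor. Its intensity was 690 and 424 in wild type at 0 h, 715 at 24 h, 1031 and 952 at 48 h, and 826 and 603 at 72 h. Mutant values were 427 at 0 h, 929 and 947 at 24 h, 553 and 611 at 48 h, and 783 and 508 at 72 h. The highest values came at 48 h in wild type and at 24 h in the mutant. The mutant rise at 24 h was the only call (1.01 ± 0.30, 2.01-fold, adjusted p = 0.0341), and it was lost without either mutant 24 h replicate (0.0962 and 0.0984) or against wild type 0 h (0.71, adjusted p = 0.101). In wild type the difference at 48 h was 0.78 (adjusted p = 0.0925) and at 72 h 0.34 (adjusted p = 0.493).

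Il6st (chr13:112464070-112506860), the gene of the shared chain gp130, had 3 probe sets. On array type C, 135888_at gave 2783 and 2944 in wild type at 0 h, 4284 and 4372 at 24 h, 5379 and 5601 at 48 h, and 5488 and 7364 at 72 h. The mutant gave 1389 and 2533 at 0 h, 5686 and 5010 at 24 h, 3902 and 4968 at 48 h, and 5029 and 5058 at 72 h. Every oxygen array of either genotype lay above every 0 h array.

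The rise of 135888_at in wild type was called at 72 h (1.12 ± 0.29, 2.18-fold, adjusted p = 0.0352). That call was lost without any 1 replicate of wild type 0 h, 48 h or 72 h (0.0517 to 0.216). In the mutant the probe set was higher by 1.45 at 24 h, 1.18 at 48 h and 1.37 at 72 h (adjusted p = 0.00388, 0.0156 and 0.00556). The 48 h call was lost without mutant 0 h replicate 1a (0.108) or mutant 48 h replicate 1b (0.0949). None of the 3 was called against wild type 0 h (0.87, 0.60 and 0.79; adjusted p = 0.0798, 0.265 and 0.0999).

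The Il6st probe sets on array type A moved less. For 94345_at no comparison with 0 h was called. It was 2012 and 2600 in wild type at 0 h and 3083 and 3435 at 72 h (0.49, adjusted p = 0.269). Its mutant values were 1862 at 0 h and 3231 and 3310 at 24 h (0.79, adjusted p = 0.0785). The dimmer 98349_at ranged from 249.6 to 569.7 over all arrays and was called in the mutant at 24 h (0.86 ± 0.23, 1.82-fold, adjusted p = 0.0205), a call that was lost without mutant 24 h replicate 1a (0.0967) and against wild type 0 h (0.62, adjusted p = 0.0628).

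Osmr (102255_at; chr15:6813568-6874968) encodes the oncostatin M receptor. Wild type gave 679 and 754 at 0 h, 1150 at 24 h, 1000 and 1528 at 48 h, and 1932 and 2392 at 72 h. The mutant gave 651 at 0 h, 1579 and 1963 at 24 h, 1619 and 1518 at 48 h, and 2723 and 2416 at 72 h. In both genotypes all oxygen arrays lay above all 0 h arrays and the 72 h arrays were highest.

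Osmr was 2.81-fold higher in wild type at 72 h (1.49 ± 0.21, adjusted p = 0.00251), a call kept with each replicate left out (at most 0.0273). At 48 h it was not called (0.73, adjusted p = 0.073). The mutant was 2.52-fold higher at 24 h, 2.26-fold at 48 h and 3.63-fold at 72 h (1.86 ± 0.26, adjusted p = 0.000784). These calls held against wild type 0 h as well (1.21, 1.05 and 1.74; adjusted p = 0.00748, 0.0172 and 0.000648). Without mutant 48 h replicate 1a the 48 h call was lost (0.0564).

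Stat3 (chr11:100886806-100939594), the transcription factor gene, had 2 probe sets on array type A and 2 on C. For 99099_at wild type gave 1742 and 1821 at 0 h, 2103 at 24 h, 3250 and 2958 at 48 h, and 3582 and 3213 at 72 h. The mutant gave 1428 at 0 h, 3205 and 3497 at 24 h, 2782 and 2779 at 48 h, and 4667 and 3774 at 72 h. Each genotype had all oxygen arrays above its 0 h arrays, and the highest values were those of the mutant at 72 h.

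In wild type 99099_at rose 1.71-fold at 48 h (0.77 ± 0.16, adjusted p = 0.0191) and 1.87-fold at 72 h (0.90, adjusted p = 0.00765). The 48 h call was lost without any 1 of the 4 replicates compared (0.0767 to 0.132), and the 72 h call without replicate 1a of wild type 0 h (0.0551) or 72 h (0.0569). The mutant rise was 2.27-fold at 24 h, 1.90-fold at 48 h and 2.84-fold at 72 h (1.51 ± 0.20, adjusted p = 0.00051), and all 3 were called against wild type 0 h too (0.88, 0.62 and 1.20; adjusted p = 0.00852, 0.0471 and 0.000987).

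The other Stat3 probe set on type A, 99100_at, was 1217 to 1228 in wild type at 0 h and 2193 to 2882 at 72 h (1.99-fold, adjusted p = 0.0238). The wild type call was lost without either 0 h replicate (0.102 and 0.11) or 72 h replicate 1a (0.14). In the mutant the log2 difference was 1.39, 1.17 and 1.80 (adjusted p = 0.00499, 0.0155 and 0.00122), and against wild type 0 h the 24 and 72 h differences were called (0.87 and 1.29; adjusted p = 0.0348 and 0.0045) and the 48 h difference was not (0.66, adjusted p = 0.119). Leaving out mutant 48 h replicate 1a also ended the 48 h call (0.0783).

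The type C probe sets of Stat3 did not follow those of type A. For 140431_g_at wild type gave 1286 and 1320 at 0 h, 1047 and 874 at 24 h, 1065 and 1731 at 48 h, and 1767 and 1836 at 72 h. The mutant gave 2211 and 1924 at 0 h, 1052 and 1215 at 24 h, 860 and 1192 at 48 h, and 1407 and 1364 at 72 h. The mutant fell by 0.81 at 24 h and by 0.95 at 48 h (adjusted p = 0.0473 and 0.0304), opposite to both type A probe sets.

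Neither fall of 140431_g_at was called against wild type 0 h (-0.19 and -0.33; adjusted p = 0.729 and 0.546). The 24 h call was lost without any 1 replicate except the 2 of wild type 48 h (0.0507 to 0.196), and the 48 h call without either mutant 0 h replicate (0.114 and 0.0817) or mutant 48 h replicate 1a (0.195). The dim 140432_r_at was between 14.61 and 268.2 on all arrays and had no call. Where in the Stat3 transcript these probes lie was not examined.

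Socs3 (gene ID 12702, chr11:117966079-117970336) is the direct feedback inhibitor of gp130, and all of its 3 probe sets are shown. For 92232_at on array type A, wild type gave 172 and 255 at 0 h, 480 at 24 h, 904 and 886 at 48 h, and 1329 and 1382 at 72 h. The mutant gave 51.4 at 0 h, 1051 and 1180 at 24 h, 2015 and 1443 at 48 h, and 2252 and 2602 at 72 h. The groups did not overlap at any time, and the order from high to low was mutant 72 h, mutant 48 h, wild type 72 h, mutant 24 h, wild type 48 h, wild type 24 h, wild type 0 h and mutant 0 h, with no overlap between neighbours.

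The wild type rise of 92232_at was 0.95 ± 0.25 at 24 h (not called, adjusted p = 0.091), 1.75 ± 0.20 at 48 h (adjusted p = 0.000957) and 2.31 ± 0.20 at 72 h (adjusted p = 0.000119). The 2 calls were kept with each replicate left out. In the mutant the differences were 3.20 ± 0.25, 3.78 and 4.27 (adjusted p = 3.82e-05, 1.56e-05 and 4.92e-06). They rest on 1 mutant 0 h array that was below the filter value, so no fold is given. Taken against wild type 0 h they were 2.04 ± 0.20, 2.63 and 3.11, still called at each time (adjusted p = 0.000444, 8.13e-05 and 1.33e-05).

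The second Socs3 probe set on type A, 162206_f_at, gave 370 and 376 in wild type at 0 h, 513 at 24 h, 921 and 939 at 48 h, and 1236 and 1359 at 72 h. The mutant gave 330 at 0 h, 1004 and 879 at 24 h, 1315 and 1157 at 48 h, and 1618 and 1263 at 72 h. All oxygen arrays of each genotype lay above its 0 h arrays, but at 72 h the genotypes overlapped.

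For 162206_f_at the rise was called in wild type at 48 h (1.16 ± 0.17, 2.23-fold, adjusted p = 0.00387) and 72 h (1.61 ± 0.17, 3.05-fold, adjusted p = 0.000387). Mutant calls were made at 24 h (1.32, 2.49-fold, adjusted p = 0.00139), 48 h (1.68, 3.21-fold, adjusted p = 0.000585) and 72 h (1.89, 3.70-fold, adjusted p = 0.000179). With wild type 0 h as the reference the mutant values were 1.17, 1.54 and 1.74, all called (adjusted p = 0.00274, 0.000625 and 0.000136). Both type A probe sets of Socs3 thus rose in both genotypes.

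The third Socs3 probe set, 111736_at on array type B, had no call in any comparison. Wild type gave 415 and 230 at 0 h, 567 and 292 at 24 h, 393 and 337 at 48 h, and 429 and 551 at 72 h. The mutant gave 628 and 548 at 0 h, 972 and 218 at 24 h, 612 and 495 at 48 h, and 608 and 744 at 72 h. The widest pair of replicates was that of the mutant at 24 h, and neighbouring groups in the order of levels overlapped throughout. The difference at 72 h was 0.48 ± 0.42 in wild type (adjusted p = 0.572) and 0.17 ± 0.42 in the mutant (adjusted p = 0.832), with SEs of 0.17 to 0.25 for the type A probe sets in these comparisons.

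**Figure D2:**
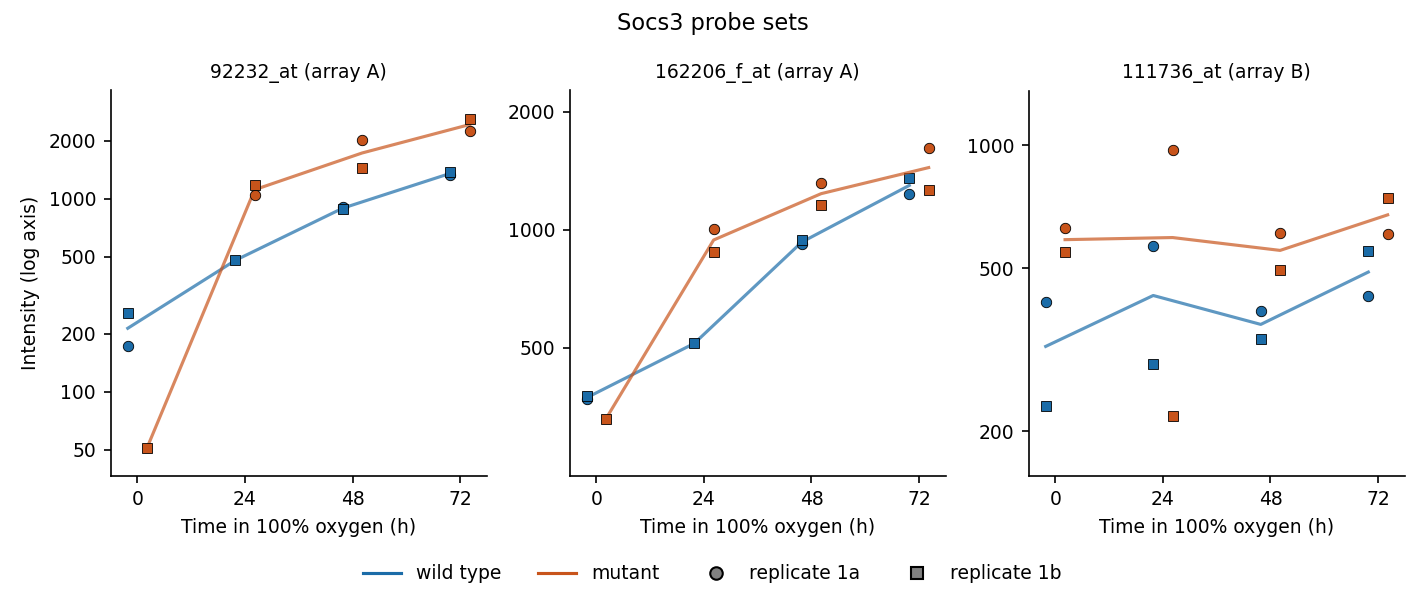
Intensity (log axis) of the 3 Socs3 probe sets against time in 100% oxygen (h), 1 panel each, with 1 point per array (circles 1a, squares 1b) and lines through the group means, wild type in blue and mutant in orange. On 92232_at the genotypes are apart at every time and cross between 0 and 24 h, from 51.4 in the mutant at 0 h to 2602 at 72 h, while on 111736_at the mutant 24 h pair alone spans 218 to 972.

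Socs2 (chr10:95383903-95417321) and Cish encode the other SOCS proteins of the set. On type A, Socs2 99475_at gave 3707 and 3420 in wild type at 0 h, 4934 at 24 h, 4552 and 5972 at 48 h, and 5060 and 6022 at 72 h. The mutant gave 2616 at 0 h, 4805 and 4865 at 24 h, 3865 and 4652 at 48 h, and 4923 and 5457 at 72 h. Oxygen arrays were above 0 h arrays in both genotypes, yet calls were made only in the mutant at 24 h (0.87, 1.82-fold, adjusted p = 0.0186) and 72 h (0.97, 1.95-fold, adjusted p = 0.0118), and wild type at 72 h was not called (0.62, adjusted p = 0.0684).

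Those 2 calls of 99475_at were not made against wild type 0 h (0.43 and 0.53; adjusted p = 0.173 and 0.089). The call at 24 h was lost without either mutant 24 h replicate (0.0613 and 0.0624).

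On type B, Socs2 113301_at gave 1455 and 1407 in wild type at 0 h, 1792 and 2084 at 24 h, 2087 and 2004 at 48 h, and 2170 and 2287 at 72 h. The mutant gave 935 and 915 at 0 h, 1807 and 1620 at 24 h, 2127 and 1950 at 48 h, and 2383 and 2196 at 72 h. Here the mutant started lower and the genotypes overlapped at every oxygen time.

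Socs2 113301_at rose 1.51-fold in wild type at 72 h (0.60 ± 0.15, adjusted p = 0.0299), a call lost without any 1 of the 4 replicates compared (0.0919 to 0.15). Its mutant rise was 1.75-fold, 2.06-fold and 2.30-fold (adjusted p = 0.00235, 0.0008 and 0.000192). Only the 72 h difference was called against wild type 0 h (0.24, 0.47 and 0.63; adjusted p = 0.357, 0.0814 and 0.015). The dimmer Socs2 109651_at was 315.8 to 659.7 on all arrays, with no call.

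Cish (100022_at; chr9:107296659-107302784) encodes CIS. Wild type gave 401 and 466 at 0 h, 523 at 24 h, 633 and 650 at 48 h, and 820 and 724 at 72 h. The mutant gave 476 at 0 h, 737 and 905 at 24 h, 813 and 974 at 48 h, and 995 and 861 at 72 h. Each later wild type time had higher values without overlap, and the mutant was above wild type at every oxygen time.

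Cish was 1.66-fold higher in wild type at 72 h (0.73 ± 0.17, adjusted p = 0.028), and this call was lost without any 1 of the 4 replicates compared (0.078 to 0.154). The mutant difference was 0.69 at 24 h, 0.80 at 48 h and 0.86 at 72 h (adjusted p = 0.0366, 0.0249 and 0.0155). The calls were lost at 24 h without either wild type 48 h replicate (0.0533) or mutant 24 h replicate 1b (0.152), at 48 h without mutant 48 h replicate 1b (0.101) and at 72 h without mutant 72 h replicate 1a (0.0708). All 3 were called against wild type 0 h (0.81, 0.92 and 0.98; adjusted p = 0.0162, 0.0114 and 0.00473).

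**Figure D3:**
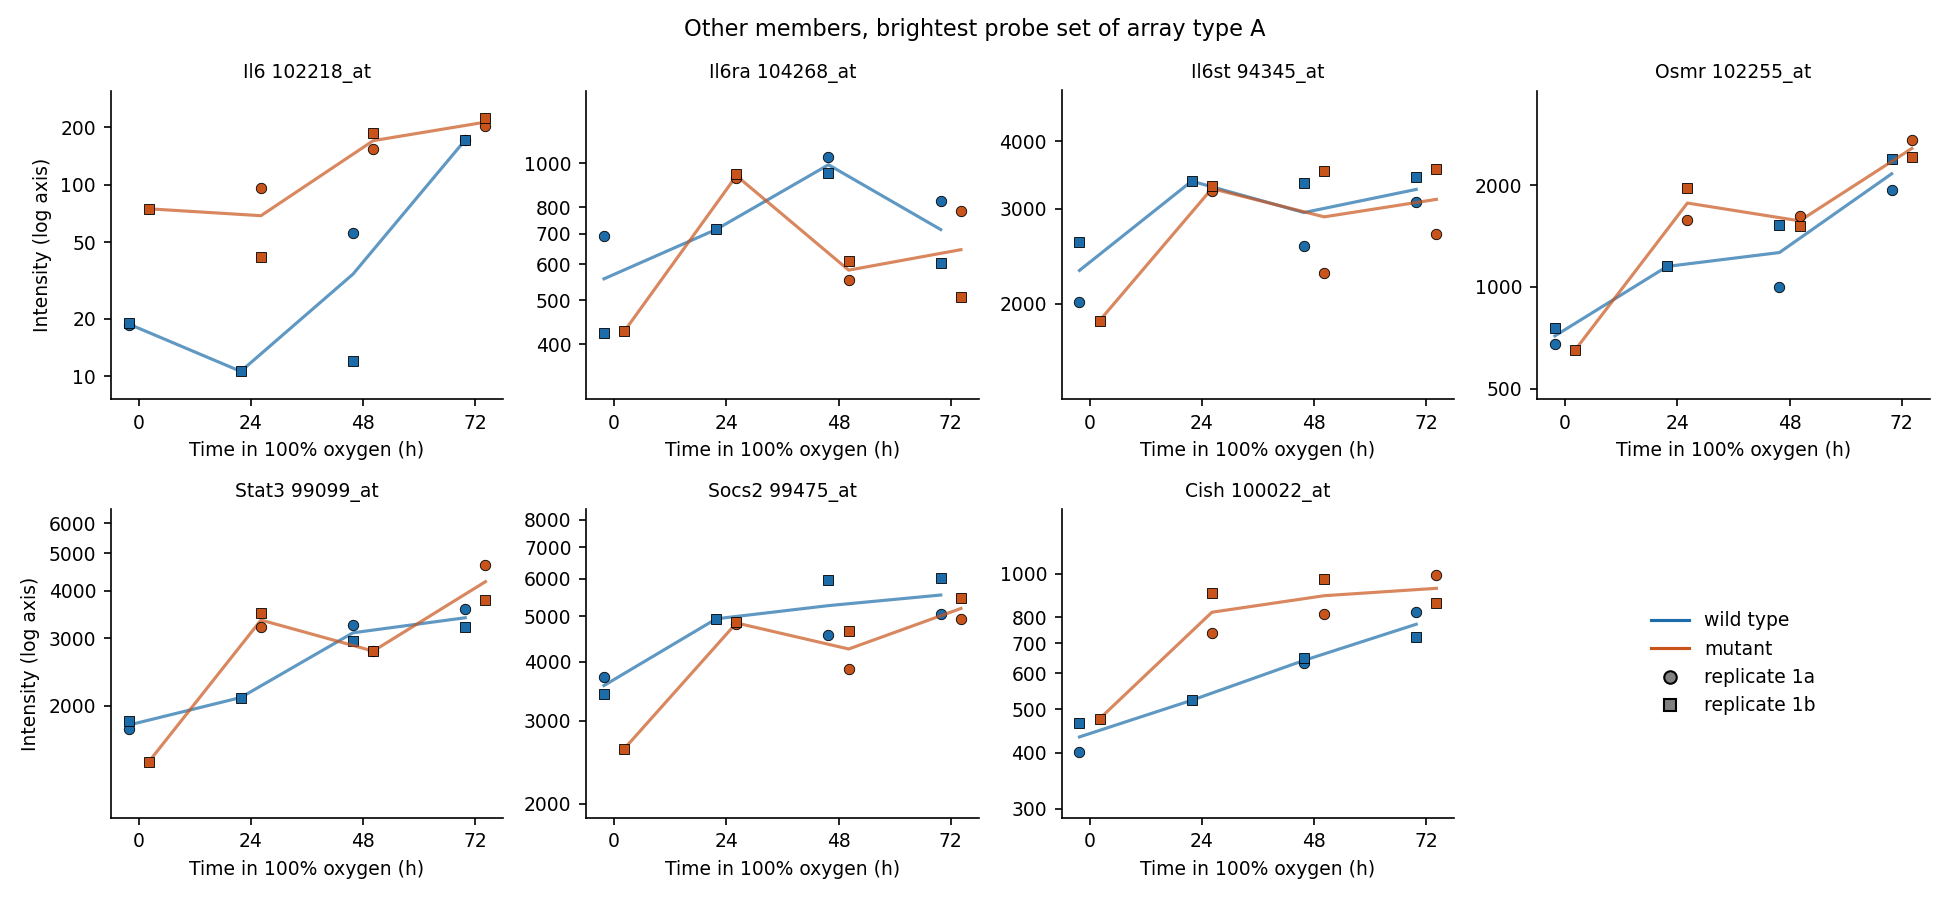
Intensity (log axis) of the brightest type A probe set of the other 7 genes against time in 100% oxygen (h), with 1 point per array (circles 1a, squares 1b) and lines through the group means, wild type in blue and mutant in orange. Osmr, Stat3 and Cish are higher at 72 h than at 0 h in both genotypes, Il6ra peaks at 48 h in wild type (1031 and 952) and at 24 h in the mutant (929 and 947), and Il6 stays at 222 or below.

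The second question was whether the mutant differed from wild type. At 0 h 1 of the 17 probe sets was called, Socs3 92232_at, which was lower in the mutant (-1.16 ± 0.25, adjusted p = 0.0369). Of all probe sets, 2.75% were called at 0 h in either direction. The call was lost without either replicate of wild type 0 h (0.0651 and 0.134), 48 h (0.0615) or 72 h (0.0529) or mutant 24 h (0.0561), and 162206_f_at differed by -0.14 ± 0.20 (adjusted p = 0.782). The third probe set, 111736_at on type B, went the other way without overlap (628 and 548 in the mutant against 415 and 230) and was not called (0.70 ± 0.42, adjusted p = 0.435).

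At single oxygen times limma called none of the 17, where the background was 0.157% at 24 h, 0.376% at 48 h and 0.820% at 72 h, and 2619, 2418 and 2598 probe sets had an unadjusted p under 0.05. For Socs3 92232_at the difference was 1.10 at 24 h, 0.87 at 48 h and 0.80 at 72 h (adjusted p = 0.136, 0.129 and 0.138). For Il6 it was 0.70, 1.17 and 0.22 (adjusted p = 0.443, 0.0669 and 0.863).

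Averaged over 24, 48 and 72 h with equal weight, Socs3 92232_at was called higher in the mutant and no probe set was called lower, where 1.25% of all probe sets were called in either direction. Il6 is left out of this count and described below. The median of the 17 was 0.23, beside -0.01 over all. Socs3 92232_at was 1.90-fold higher (0.92 ± 0.13, adjusted p = 0.0051), higher in each mutant array than in each wild type array of the same time. The call was kept with each replicate left out (at most 0.0222). For 162206_f_at the mean difference was 0.43 ± 0.10 (adjusted p = 0.092).

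The mean difference of Il6 was 0.70 ± 0.14 (adjusted p = 0.0433), at intensities near or below the filter value. It is a description, since Il6 passed the filter only through mutant 72 h arrays that enter this mean. The adjusted p was above 0.05 with the floor (0.059), with no filter (0.0647), with only the arrays compared (0.0707), with the replicate block (0.0502) and with trended and robust eBayes (0.154), and the stricter filter left Il6 out. It was also above 0.05 without either replicate of wild type 0 h (0.0726), wild type 72 h (0.0978 and 0.106), mutant 48 h (0.083 and 0.111) or mutant 72 h (0.0846 and 0.101), and without wild type 48 h replicate 1b (0.098) or mutant 24 h replicate 1a (0.0922). Cish (0.42, adjusted p = 0.12), Osmr (0.38, adjusted p = 0.284), Stat3 99099_at (0.27, adjusted p = 0.337) and Il6st 135888_at (-0.11, adjusted p = 0.884) were not called.

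**Figure D4:**
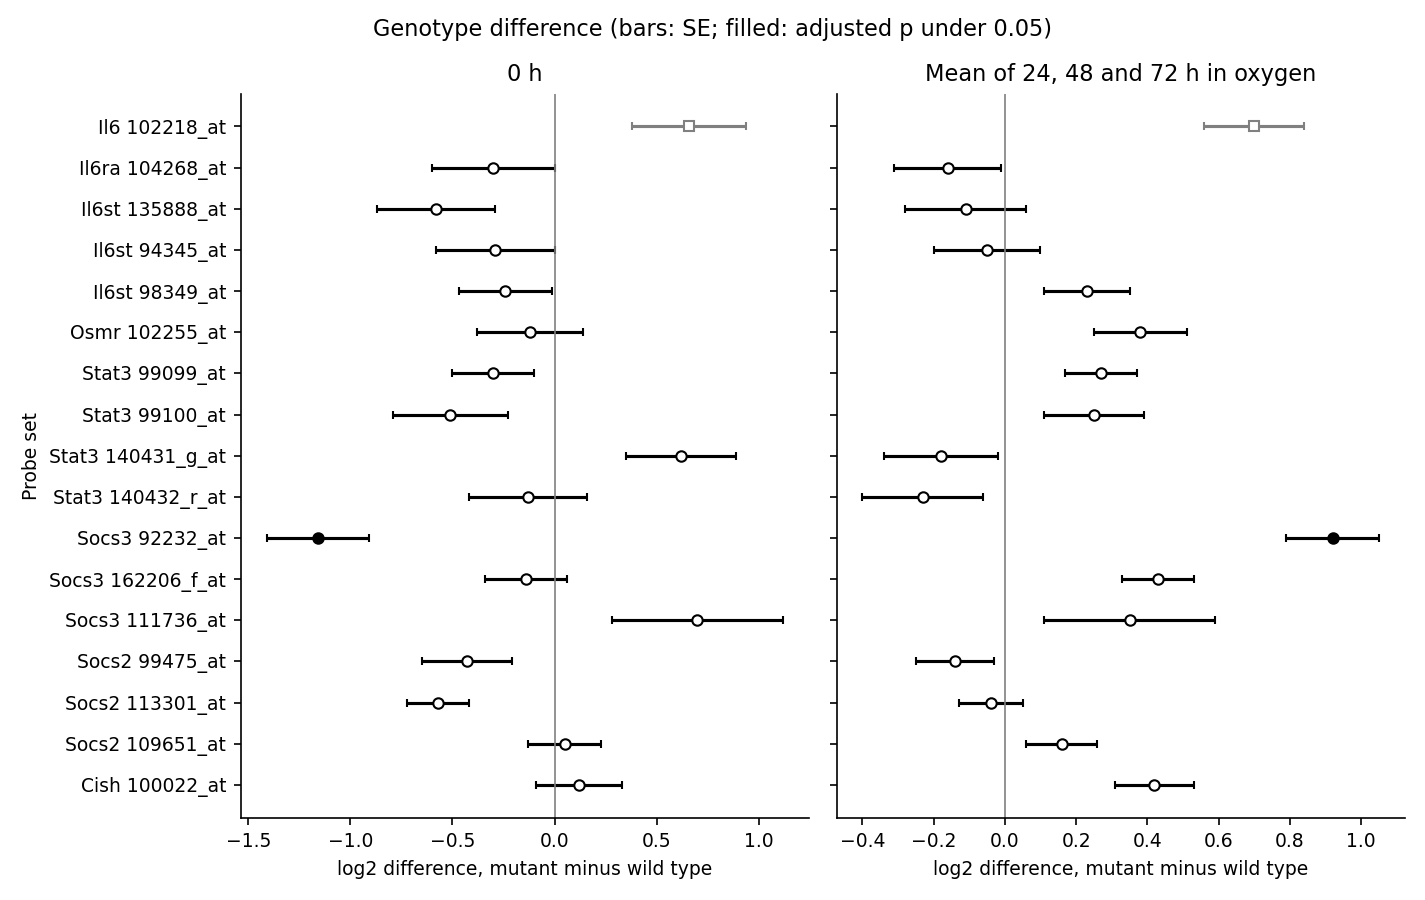
Log2 difference of the mutant minus wild type (horizontal axis) for the 17 probe sets (vertical axis), at 0 h on the left and as the mean of 24, 48 and 72 h in oxygen on the right. Points are fitted differences, bars 1 SE, and filled points had an adjusted p under 0.05, apart from Il6, a grey open square because only mutant 72 h arrays passed the filter. Socs3 92232_at is filled on both sides with opposite sign (-1.16 and 0.92).

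The third question was whether the genotypes responded to oxygen by different amounts, tested as the mutant change from 0 h minus the wild type change from 0 h. Socs3 92232_at was called at all 3 times and no other member probe set at any. The difference was 2.25 ± 0.35 at 24 h (adjusted p = 0.0137), 2.03 ± 0.32 at 48 h (adjusted p = 0.0221) and 1.96 ± 0.32 at 72 h (adjusted p = 0.0182). The background was 1.93%, 0.652% and 1.36% of probe sets in either direction.

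These differences in response rest on the 51.4 of the single mutant 0 h array. Counted from 24 h instead of 0 h, the difference was -0.22 at 48 h (adjusted p = 0.863) and -0.29 at 72 h (adjusted p = 0.9). For Socs3 162206_f_at, whose mutant 0 h value was 330, the difference was 0.93 at 24 h, 0.52 at 48 h and 0.28 at 72 h (adjusted p = 0.135, 0.471 and 0.706). For 111736_at, with 2 mutant 0 h arrays, it had the opposite sign, -0.51, -0.23 and -0.32 (SE 0.59; adjusted p = 0.718, 0.919 and 0.866). The 48 h call was lost without wild type 0 h replicate 1b (0.0674), either wild type 48 h replicate (0.0826 and 0.0867) or mutant 48 h replicate 1a (0.079). The 72 h call was lost without wild type 0 h replicate 1b (0.0561), either wild type 72 h replicate (0.053 and 0.0586) or mutant 72 h replicate 1b (0.06).

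Other genes of the pathway are described from lists assembled for this purpose, with 1 probe set per gene, the brightest. Their largest movement was among STAT3-responsive and acute phase genes, of which 25 of 27 were tested. Of the 124 calls of pathway genes that the naming rule covers, 66 were kept with each replicate left out. In wild type 1 gene of the list was higher at 24 h (Cebpb), 6 at 48 h and 17 at 72 h, and none was lower at these times. Of all probe sets 0.962%, 3.25% and 4.26% were called higher. The list's median at 72 h was 1.08, beside -0.06 over all probe sets. In the mutant 15, 16 and 17 were higher, and Vegfa was lower at 72 h, where the median was 1.87 beside -0.03. The share of all probe sets called higher was 12.2%, 9.61% and 11.0%. The mutant counts against wild type 0 h were 8, 11 and 18 higher, with medians of 0.63, 0.65 and 1.31, and again Vegfa lower at 72 h. There 5.11%, 3.56% and 6.23% of all probe sets were higher. Over all lists the rule named 68 mutant calls, of which 40 were also made against wild type 0 h, and none changed sign.

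Saa3, an acute phase protein made in inflamed tissue, gave 1180 and 1473 in wild type at 0 h, 669 at 24 h, 3432 and 3213 at 48 h, and 7067 and 7041 at 72 h. In the mutant it gave 920 at 0 h, 903 and 956 at 24 h, 2147 and 1416 at 48 h, and 6875 and 6414 at 72 h. Saa3 was 5.11-fold higher at 72 h in wild type (2.35 ± 0.20, adjusted p = 0.000107) and 6.73-fold in the mutant (2.75 ± 0.24, adjusted p = 6.27e-05; 2.27 against wild type 0 h, adjusted p = 7.94e-05). At 24 h it was not above 0 h on the wild type array.

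Serpina3n, an acute phase protease inhibitor, gave 3333 and 2556 in wild type at 0 h and 11990 and 12590 at 72 h (2.04 ± 0.21, adjusted p = 0.000401). In the mutant it gave 1868 at 0 h, 7102 and 7280 at 24 h, 7921 and 6212 at 48 h, and 20770 and 17700 at 72 h (3.31 ± 0.26, adjusted p = 3.16e-05; 2.68 against wild type 0 h, adjusted p = 4.42e-05). Every mutant oxygen array lay above the wild type arrays of the same time. The mean difference over the oxygen times was called (adjusted p = 0.00472). This call was kept in 15 leave-one-out fits, while the single wild type 24 h array could not be left out.

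The C/EBP transcription factor genes Cebpb and Cebpd, which are induced with the acute phase, rose early. Cebpb was already called in wild type at 24 h (1.22 ± 0.22, 2.33-fold, adjusted p = 0.0241), a call lost without either wild type 0 h replicate (0.0777 and 0.115), and Cebpd at 48 h (1.27 ± 0.17, 2.42-fold, adjusted p = 0.00234). Bcl3, a nuclear regulator of NF-kappaB, was 2.46-fold higher in wild type at 72 h (1.30 ± 0.18, adjusted p = 0.00193). In the mutant at 0 h Bcl3 was at 135, below the filter value, against 581 and 716 in wild type. Timp1, an inhibitor of matrix proteases, was 1.88-fold higher in wild type at 72 h (adjusted p = 0.0303) and 5.35-fold in the mutant (3.83-fold against wild type 0 h, adjusted p = 0.00036). The wild type call of Timp1 was lost without either 0 h replicate (0.0676 and 0.177) or 72 h replicate 1a (0.172). Lcn2, a neutrophil and epithelial protein gene, was 2.73-fold and 4.20-fold higher (2.30-fold in the mutant against wild type 0 h, adjusted p = 0.00944).

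Between genotypes, the mean over oxygen times was higher in the mutant for Junb (0.74 ± 0.12, adjusted p = 0.0144), Fos (0.61 ± 0.09, adjusted p = 0.0102) and Serpina3n, and for none of the list lower. Of all probe sets 1.25% were called in either direction. Fos was not higher in the mutant at 72 h, where it was 1.10 above wild type 0 h in the mutant and 1.24 above it in wild type. At 24 h these 3 means use a single wild type array. Junb and Fos encode AP-1 subunits. Bcl3 (-0.02, adjusted p = 0.984), Saa3 (-0.18, adjusted p = 0.666), Timp1 (0.25, adjusted p = 0.572) and Cebpd (0.34, adjusted p = 0.193) were not called. The difference in response was called for 6 of the 25 at 24 h, for 3 at 48 h and for 2 at 72 h. Of all probe sets 1.93%, 0.652% and 1.36% were called in either direction. Bcl3 and the cyclin gene Ccnd1 were called at each time. Both of these, like Socs3 92232_at, were called lower in the mutant at 0 h (-1.77 and -1.54; adjusted p = 0.00254 and 0.0138), and the call of Ccnd1 was lost without replicate 1b of wild type 0 h (0.08) or mutant 0 h (0.0727). For Bcl3 the single type A array of the mutant at 0 h could not be left out. Of the differences in response, that of Bcl3 at 48 h was kept in its 15 leave-one-out fits and that of Ccnd1 at 72 h in its 16. Those of Bcl3 at 24 and 72 h were each lost in 10 leave-one-out fits (up to 0.107 and 0.103), and those of Ccnd1 at 24 and 48 h in 5 and 14 (up to 0.0828 and 0.132). Counted from 24 h none of those at 48 and 72 h was called: Bcl3 had 0.83 at 48 h and 0.05 at 72 h (adjusted p = 0.332 and 0.985), and Ccnd1 -0.06 and 0.40 (adjusted p = 0.976 and 0.884).

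**Figure D5:**
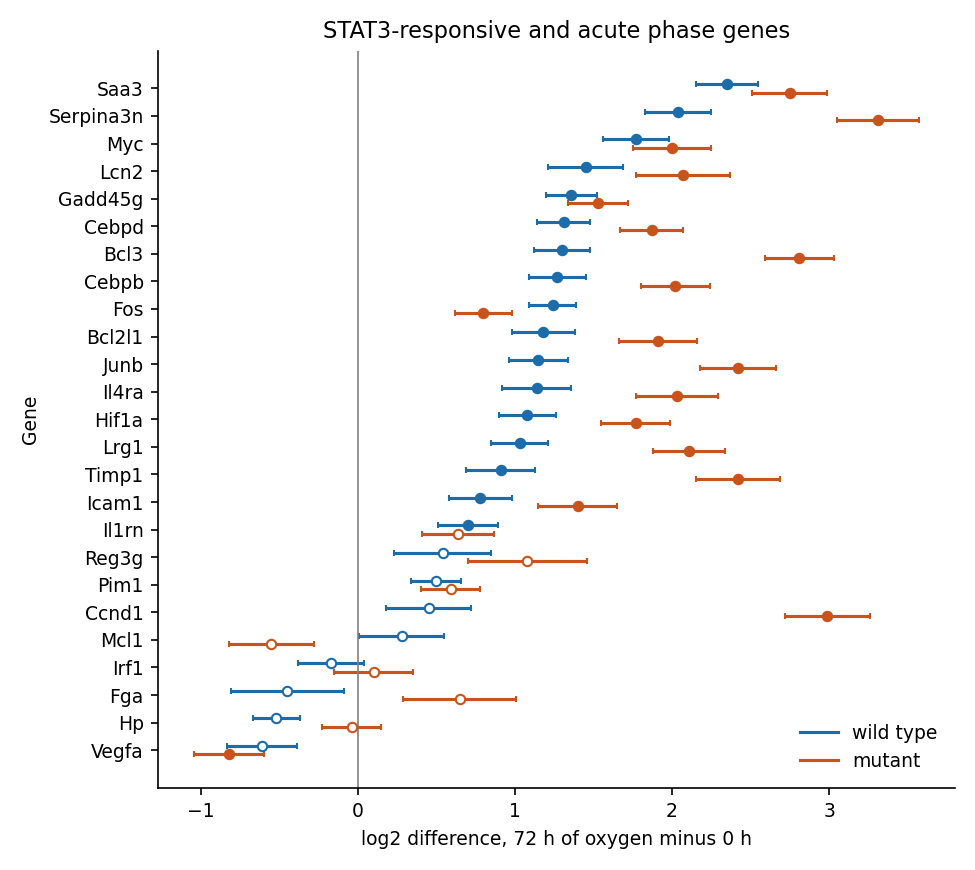
Log2 difference of 72 h of oxygen minus 0 h (horizontal axis) for the 25 tested STAT3-responsive and acute phase genes (vertical axis, in the order of the wild type difference), wild type in blue and mutant in orange, with bars of 1 SE and filled points where the adjusted p was under 0.05. Each genotype is set against its own 0 h. In each, 17 genes are filled to the right of 0, led in wild type by Saa3 (2.35) and in the mutant by Serpina3n (3.31).

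The genes upstream of Il6 and beside its receptors moved less. Of 3 tested ligand genes of the interleukin 6 family, none was called except Clcf1, which was lower in wild type at 48 h (-1.15 ± 0.30, adjusted p = 0.041), a call lost in 10 of 16 leave-one-out fits (0.0521 to 0.237). Against wild type 0 h Clcf1 was also called lower in the mutant, at 48 h (-1.18 ± 0.30, adjusted p = 0.0373) and 72 h (-1.02 ± 0.30, adjusted p = 0.0439). Of 5 tested receptor genes, Lepr, the leptin receptor, was higher in wild type at 72 h (2.32 ± 0.50, adjusted p = 0.0145). In wild type it gave 351 and 80.1 at 0 h and 1411 and 1292 at 72 h. Without wild type 0 h replicate 1b (0.13) or either wild type 72 h replicate (0.0759 and 0.0733) it was not called. In the mutant Lepr gave 249 and 17.5 at 0 h, 568 and 661 at 24 h, and 746 and 547 at 72 h. It was called at both of these times (1.78 and 1.84; adjusted p = 0.0218 and 0.0205), though not without mutant 0 h replicate 1b (0.214 and 0.204) or either replicate of the time compared (0.0501 to 0.111), nor against wild type 0 h (1.30 and 1.36; adjusted p = 0.124 and 0.101). Csf3r, the receptor of the neutrophil growth factor G-CSF, was higher in wild type at 48 h (1.80-fold, adjusted p = 0.0413). In the mutant it was higher at all 3 times, by log2 differences of 1.74, 1.65 and 1.55. The mutant 0 h array was at 437 and wild type 0 h at 994 and 1050, and against wild type 0 h none of the mutant differences was called (0.65, 0.56 and 0.46; adjusted p = 0.0844, 0.163 and 0.209). The wild type call of Csf3r was lost without any 1 replicate of wild type 0 h or 48 h (0.151 to 0.17) or mutant 24 h (0.0557).

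The summed intensity of 8 neutrophil markers, Csf3r included, was followed on type A. It was 10100 to 10630 in wild type at 0 h, 10450 at 24 h, 19840 to 20510 at 48 h and 17800 to 18490 at 72 h. In the mutant it was 14710 at 0 h, 20660 to 22190 at 24 h, 6290 to 6513 at 48 h and 6548 to 7839 at 72 h. At 48 and 72 h the mutant sum was thus below every wild type array. On type A the fibroblast and smooth muscle sums were higher in the mutant at 48 and 72 h. The wild type fibroblast sum was 11940 to 14370 at 0 h, 25690 at 24 h and 15770 to 18890 at 72 h. On the mutant 0 h array it was 21080. The smooth muscle sum at 0 h was 8436 to 8480 in wild type and 8775 in the mutant. The sum of 5 fibroblast markers was 29510 to 29950 in the mutant at 48 h against 19930 to 20880 in wild type, and 23570 to 27600 against 15770 to 18890 at 72 h. That of 3 smooth muscle markers was 11010 to 11510 in the mutant against 8523 at 24 h, 10130 to 10520 against 5389 to 5419 at 48 h, and 14170 to 15680 against 6165 to 7070 at 72 h. At 24 h the fibroblast sums overlapped (23770 to 25810 against 25690). On type C 1 smooth muscle marker was lower in the mutant at 48 h (113.3 to 244.2 against 391.7 to 579.8). At 72 h it was higher (632.9 to 694.2 against 277.2 to 471.7). The type B marker was higher in the mutant at 48 h (836.3 to 890.7 against 674.9 to 738.4) and 72 h (789.8 to 1009 against 671.3 to 721.9). The sum of 6 endothelial markers on type A was 19150 in the mutant against 20280 to 20690 in wild type at 0 h. It was 34790 to 37610 against 32390 at 24 h, 29240 to 32040 against 28040 to 31770 at 48 h, and 32990 to 34700 against 28050 to 29770 at 72 h. On type C 1 endothelial marker overlapped between genotypes at 24, 48 and 72 h. The part of neutrophil, fibroblast, smooth muscle or endothelial content in the values of Socs3, Il6, Il6ra or Lcn2 was not tested.

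Among 8 tested Janus kinase and other STAT genes, none was called in wild type at any time. In the mutant Jak3 and Stat6 were higher at all 3 times (Jak3 by 1.26, 0.89 and 1.05; Stat6 by 1.32, 1.05 and 0.86). The mutant 0 h array was at 691 for Jak3 and 1018 for Stat6, below wild type 0 h (1182 and 980; 1769 and 1710). The 24 h calls held against wild type 0 h (0.67 and 0.59; adjusted p = 0.0219 and 0.043) and those at 48 h (0.31 and 0.32) and 72 h (0.47 and 0.13) did not. Higher at 24 h were also Stat5a and Stat5b (0.70 and 0.74; adjusted p = 0.0483 and 0.0443), neither of them against wild type 0 h (0.32 and 0.70; adjusted p = 0.334 and 0.0915). The Stat5a and Stat5b calls were lost in 10 of 15 and 11 of 16 leave-one-out fits (up to 0.204 and 0.286), and that of Stat6 at 72 h without mutant 72 h replicate 1b (0.0512). Jak2, a kinase of gp130, was not called at 72 h (0.08, adjusted p = 0.879 in wild type; 0.42, adjusted p = 0.284 in the mutant). Of 13 other inhibitors of the pathway, wild type had 3 higher at 72 h, where 4.26% of all probe sets were higher. They were Socs6 (2.45-fold), the phosphatase gene Ptpn1 (1.70-fold) and Ptpn11 (1.57-fold). The Socs6 call was kept with each replicate left out (at most 0.0323). That of Ptpn1 was lost without either wild type 0 h replicate (0.0697 and 0.0773) or wild type 72 h replicate 1b (0.0946), and that of Ptpn11 in 8 of 16 leave-one-out fits (0.0508 to 0.21). The mutant had 5, 4 and 6 higher, where 12.2%, 9.61% and 11.0% of all probe sets were higher. Against wild type 0 h it had 2, 3 and 4 higher, where the share of all was 5.11%, 3.56% and 6.23%. The list's medians there were 0.12, -0.01 and 0.22, and Ptpn6 was lower at 72 h. Ptpn1 was called higher at each time (log2 differences of 0.86, 0.63 and 0.65). Socs1, the inhibitor closest to Socs3, had -0.75 in wild type at 72 h (adjusted p = 0.0851).

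Of 11 tested inducers of Il6, wild type had 1 called at 48 and at 72 h, where 6.64% and 7.83% of all probe sets were called. It was Rela, the NF-kappaB subunit gene (1.86-fold and 1.80-fold higher, adjusted p = 0.0115 and 0.0112). The 48 h call was lost without any 1 of the 4 replicates compared (0.0568 to 0.0871), and the 72 h call without either 0 h replicate (0.0549 and 0.0759) or 72 h replicate 1a (0.0804). Il1b, an inducing cytokine, gave 1194 and 1101 in wild type at 0 h, 659 at 24 h, 1049 and 1237 at 48 h, and 1318 and 1491 at 72 h. In the mutant it gave 1303 at 0 h, 1185 and 992 at 24 h, 316 and 375 at 48 h, and 539 and 624 at 72 h. Il1b was thus lower in the mutant at 48 h (-1.53 ± 0.17, adjusted p = 0.00359) and at 72 h (-1.17 ± 0.17, adjusted p = 0.0104). The genotype difference of Il6 was not called at 48 h (1.17, adjusted p = 0.0669) or 72 h (0.22, adjusted p = 0.863). A relation between Il1b and Il6 was not tested. The 48 h call of Il1b was lost without wild type 48 h replicate 1b (0.0647) or mutant 48 h replicate 1a (0.0514), and the 72 h call without either wild type 72 h replicate (0.0545 and 0.105) or mutant 72 h replicate 1a (0.0853). Averaged over the oxygen times the Il1b difference was -0.68 ± 0.11 (adjusted p = 0.0115). This call was kept in 15 leave-one-out fits, while the single wild type 24 h array could not be left out. Tnf was not called in wild type at 72 h (-1.09 ± 0.31, adjusted p = 0.058).

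In the mutant 4, 3 and 5 of the 11 inducers were called higher than at 0 h, and 1, 2 and 1 lower. Of all probe sets 12.2%, 9.61% and 11.0% were called higher and 12.1%, 8.27% and 10.5% lower. Against wild type 0 h 2, 1 and 3 inducers were higher and 1 was lower at each time, with medians of 0.02, -0.00 and 0.21. There 5.11%, 3.56% and 6.23% of all probe sets were higher. Rela, Nfkb2 (another NF-kappaB subunit gene) and Il1a (a cytokine of the interleukin 1 family) were higher at all 3 times. Rela gave 2254 in the mutant at 0 h, 9795 and 10240 at 24 h, 9319 and 8051 at 48 h, and 11120 and 11380 at 72 h, and wild type 0 h gave 4514 and 4287. The mutant difference of Rela was 2.11, 1.91 and 2.28, and 1.17, 0.97 and 1.34 against wild type 0 h, called at each time with either reference. Nfkb2 differed by 1.47, 1.10 and 1.34, and against wild type 0 h by 0.79, 0.42 and 0.66, the 48 h value not being called (adjusted p = 0.192). Il1a differed by 0.87, 1.04 and 1.07 from a mutant 0 h value of 130, below the filter value, and was not called against wild type 0 h (0.12, 0.29 and 0.32; adjusted p = 0.744, 0.415 and 0.31). At 0 h Rela was lower in the mutant (-0.94 ± 0.20, adjusted p = 0.0373), a call lost in 8 of 15 leave-one-out fits (up to 0.15). Its difference in response was called at 24 h (1.53, adjusted p = 0.0267) and 72 h (1.43, adjusted p = 0.0309), and lost in 4 of 14 and 9 of 15 leave-one-out fits (up to 0.0861 and 0.1). That of Il1b was called at 48 h (-1.70, adjusted p = 0.0238) and 72 h (-1.34, adjusted p = 0.0454), and lost in 6 and 12 of 15 leave-one-out fits (up to 0.104 and 0.138). Counted from 24 h the Il1b differences were -2.19 and -1.83 (adjusted p = 0.0113 and 0.0406), while that of Rela at 72 h was -0.10 (adjusted p = 0.964).

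Of 6 tested receptors and targets of STAT5, the arm that CIS and SOCS2 restrain, Csf2rb, the common beta chain of the GM-CSF receptor, was higher in wild type at 48 h (1.79-fold, adjusted p = 0.0115) and 72 h (1.62-fold, adjusted p = 0.0234). The growth hormone receptor gene Ghr was lower at 48 h (-0.89 ± 0.20, adjusted p = 0.0287). Csf2rb lost its 48 h call without wild type 0 h replicate 1a (0.0793) or either 48 h replicate (0.0919 and 0.0615), and its 72 h call without either 0 h replicate (0.143 and 0.0659) or 72 h replicate 1a (0.157). The Ghr call was lost without wild type 0 h replicate 1b (0.196) or either 48 h replicate (0.157 and 0.107). In the mutant the difference of Ghr was -1.53, -1.05 and -1.08, called at each time, though not at 48 h without mutant 48 h replicate 1a (0.0796). Only the 24 h difference of Ghr was called against wild type 0 h (-0.93, adjusted p = 0.0187), and those at 48 and 72 h were -0.45 and -0.48 (adjusted p = 0.241 and 0.165).

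Igf1, the growth factor gene that growth hormone induces through STAT5, gave 1511 and 1762 in wild type at 0 h and 3242 and 2841 at 48 h (0.85 ± 0.18, adjusted p = 0.0177), a call lost without any 1 of these 4 replicates (0.0634 to 0.136). The mutant gave 1720 and 2133 at 0 h and 4265 and 4823 at 48 h (1.19 ± 0.18, adjusted p = 0.0012). That call was kept with each replicate left out (at most 0.0125) and against wild type 0 h (1.41, adjusted p = 0.000904). Csf2rb was higher in the mutant at 24 h (log2 difference 1.37, adjusted p = 0.000195) and 72 h (log2 difference 0.84, adjusted p = 0.00338). With wild type 0 h as the reference they were 0.94 (adjusted p = 0.00484) and 0.41 (adjusted p = 0.131). At 48 h Csf2rb was lower in the mutant than in wild type (1611 and 1793 against 4226 and 3970; -1.21 ± 0.16, adjusted p = 0.00557), a call lost without either wild type 48 h replicate (0.077 and 0.0668) or mutant 48 h replicate 1a (0.0919). Its difference in response was called at 24 h (1.27, adjusted p = 0.0192) and lost in 6 of 16 leave-one-out fits (up to 0.078).

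Genes with the pattern most like Socs3 were ranked by the Pearson correlation over the 8 group means on type A, among 7645 probe sets. The highest were Bhlhe40 (r = 0.989), Rnh1 (0.987), Ipo4 (0.982), Anapc1 (0.981) and Rrp9 (0.980). Of the other members, Stat3 99100_at stood at rank 33 (0.961), Osmr at 89 (0.943), Cish at 185 (0.920) and Il6 at 1809 (0.613). For Il6, with 7646 compared, the highest were Atf3 (0.960), Nono (0.958), Ccn1 (0.949), Nucks1 (0.944) and Ppa1 (0.927). The other members ranged from Cish at rank 126 (0.790) to Il6ra at 4666 (-0.190). Between them were Osmr at 292 (0.701), Socs3 92232_at at 505 (0.613), Socs2 99475_at at 2188 (0.210) and Il6st 94345_at at 2463 (0.163). These correlations describe 8 points from the same 14 arrays, which share the mutant 0 h array, and carry no test.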

How the data were processed

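Lung RNA of 8 groups was hybridised to 46 arrays of 3 types. The authors deposited 1 intensity per probe set and array on a linear scale, with trimmed means that were about the same on every array. The scaling tool and the genome build were not given in the sources used here. That scaling was kept, 66 control probe sets per type were removed, and log2 was taken of these deposited intensities after adding the 25th percentile of the array type. The filter was the 40th percentile on at least 2 arrays. limma 3.58.1 in R 4.3.3 was fitted once per array type with 1 mean per group, which lets a group of 1 array borrow the spread of the rest. All tests were two-sided, with Benjamini-Hochberg adjustment over 26833 probe sets. The number of arrays limits the precision. Fits were tested on simulated data. Alternatives were a floor, quantile normalization, other filters, only the arrays compared, a replicate block, trended and robust eBayes, other references, and each replicate left out. The filter stayed as set on all arrays when some were left out. The only array of a group could not be left out of comparisons that use that group. Gene symbols came from platform annotation and positions from RefSeq. Named were all member probe sets, up to 4 called genes per list and comparison, and a set of pathway genes reported throughout. The members and lists were chosen with earlier results of these data known.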

Additional observations from a re-analysis of the deposited data

Results flagged for a closer look

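The response of Socs3 92232_at to oxygen differed between genotypes by a test of that difference at each time, by 2.25 at 24 h, 2.03 at 48 h and 1.96 at 72 h on the log2 scale, the mutant rising more. The 3 results share the mutant 0 h group, which is 1 array of type A at 51.4, and the wild type 0 h group at 172 and 255. On Socs3 162206_f_at the same differences were 0.93, 0.52 and 0.28, none of them called, and on 111736_at they had the opposite sign and were not called (-0.51, -0.23 and -0.32). Against wild type 0 h, the mutant rise of 92232_at at 24 h was 2.04, and the wild type rise at that time was 0.95.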

How the results depend on the processing

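Counts of called member probe sets moved by over 1.5 times under these settings. With only the arrays compared, the count was 4 for wild type 72 h, 6, 4 and 6 for the mutant at 24, 48 and 72 h, 0 for the genotypes at 0 h, 1 for their mean over oxygen times and 0 for the difference in response at each time. Trended and robust eBayes gave 7 for wild type 48 h, 2 at 0 h and 1 for the mean. The stricter filter gave 6, 2 and 1 for these. The replicate block gave 6 for wild type 48 h and 1 for the mean. The differences between 1a and 1b correlated across pairs of groups above 0.1 in 7 of 15 pairs on type A, 18 of 28 on B and 2 of 28 on C. The highest r was 0.368, 0.245 and 0.124. Arrays of the same replicate number thus shared some deviation on types A and B. The main fit did not model it, while the replicate block did. Nothing in the labels tells what the numbers stand for. The floor gave 1 at 48 h between genotypes and 1 for the mean, quantile normalization 0 at 0 h and 1 at 48 h, and no filter 1 for the mean. In each setting with 1 for the mean, Socs3 92232_at was kept and Il6 was not called or, under the stricter filter, not tested. Against wild type 0 h the mutant at 24 h had 6. Counted from 24 h, the difference in response had 0 calls at 48 and 72 h, and for Socs3 92232_at the sign turned (-0.22 and -0.29), as it did for Ccnd1 at 48 h (-0.06) and Rela at 72 h (-0.10). With each replicate left out, counts were 0 to 0 for wild type 24 h, 2 to 4 for 48 h, 4 to 9 for 72 h, 2 to 11, 2 to 9 and 2 to 10 for the mutant, 0 to 1 for the genotypes at 0 h, 0 to 0 at 24, 48 and 72 h, 0 to 2 for the mean, and 0 to 1 for each difference in response. Without mutant 0 h replicate 1b no type A array of that group is left, so the mutant count was 2. Over all probe sets, calls for wild type 72 h were 2100, and 586 to 2560 across settings. They were 6539 for the mutant at 24 h (2121 to 7069), and 336 for the mean (68 to 435). The causes were not tested.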
